A study of Mus musculus with 6 samples.

Results

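The secreted adipokines are hormones and signalling proteins that fat releases into the blood or to its neighbours, and 10 of their genes were followed by symbol in RNA-seq of epididymal white adipose tissue (eWAT): Lep, Adipoq, Retn, Rbp4, Nampt, Apln, Rarres2, Nrg4, Agt and Metrnl. They are 10 of the 54532 genes in the count table, and 10 of 10 were among the 16003 genes with enough counts to test. The tissue came from male C57BL/6 mice aged 6 to 10 weeks. The cachexia group (n = 3) had been inoculated under the skin with LLC cells, a mouse Lewis lung carcinoma line, and the control group (n = 3) carried no such tumour. eWAT was taken on day 21, and cachexia was defined as a loss of more than 20% of body weight. All mice shared the strain background and no transgene or drug is named for either group. Whether the controls received a mock injection is not given in the sources used here. The model rests on 1 tumour cell line grown outside the lung, and a library stands for a whole fat pad sample rather than for isolated adipocytes.

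Adipokines report the state of the fat store to other organs. Leptin, from Lep, rises with fat mass and restrains appetite through a receptor in the brain, and adiponectin, from Adipoq, acts on liver and muscle to favour fatty acid oxidation and insulin sensitivity. Resistin and retinol-binding protein oppose insulin action in mice, apelin and angiotensinogen act on vessels, and chemerin, from Rarres2, attracts leukocytes and acts on adipocytes themselves.

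Libraries held 14928766 to 18855546 counts, and the 3 cachexia libraries were each smaller than the 3 control libraries. Levels are given as CPM, the counts of a gene relative to library size, after scaling by trimmed mean of M values, whose factors ran from 0.937 to 1.07. Adipocyte markers were present in both groups: 20 of 20 (Plin1, Fabp4, Lipe and others) were tested. Their summed level was 59013 to 88103 CPM in controls and 47579 to 76471 CPM in cachexia. Control replicate 1 stood apart from the other controls over all tested genes. Its score on the second principal component, which held 16.3% of the variance, was 47.2, against -28.8 and -23.3 for control replicates 2 and 3, and -1.46 to 3.33 for the cachexia mice. Markers of the neighbouring epididymis did not pass the filter in any case (0 of 7), with sums of at most 4.52 CPM. Other cell types did move with the groups. Neutrophil markers summed to 32.3 to 49.6 CPM in controls and 250.3 to 793 CPM in cachexia (8 of 9 tested rose, 0 fell), erythroid markers to 252 to 451 CPM and 1333 to 2855 CPM (6 of 6 rose), endothelial markers to 1567 to 1728 CPM and 2318 to 3682 CPM (4 of 10 rose, 0 fell), and lymphocyte markers to 422 to 527 CPM and 12.3 to 130 CPM (2 of 8 fell, 0 rose). Progenitor markers summed to 3636 to 3902 CPM and 2412 to 3254 CPM (1 of 10 rose, 4 fell), and macrophage markers to 1487 to 1869 CPM and 1231 to 1922 CPM (2 of 10 rose, 2 fell). No mesothelial marker (0 of 8) or skeletal muscle marker (0 of 3 tested) passed. Among all tested genes 17.6% were called, in either direction. None of the adipocyte, neutrophil, erythroid, endothelial, lymphocyte, progenitor or macrophage markers was at 0 in all libraries. The part of these shifts in the results below was not tested, and in bulk tissue fewer cells of a type and less RNA per cell cannot be told apart.

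The question here was which adipokine transcripts differed between the eWAT of cachectic and control mice. In edgeR's quasi-likelihood test, adjusted over all genes, 3 of the 10 fell in cachexia (Lep, Apln and Rarres2), 1 rose (Agt), and 6 did not pass an adjusted p of 0.05. Among all tested genes 17.6% passed (9% higher and 8.63% lower). The median log2 fold change was -0.51 over the 10 adipokines and -0.00 over all tested genes. Control and cachexia values did not overlap for 5 of the 10 (the 4 above and Retn), where 40.5% of all tested genes were separated in this way (20.4% with cachexia higher and 20.1% with cachexia lower). DESeq2 called the same number of the 10 in each direction, where it called 24.4% of all genes it tested. With 3 mice a group an exact permutation test of 1 gene cannot give a p below 0.1. No source says whether littermates or cages were shared, so the p-values measure the spread between these 6 libraries.

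**Figure D1:**
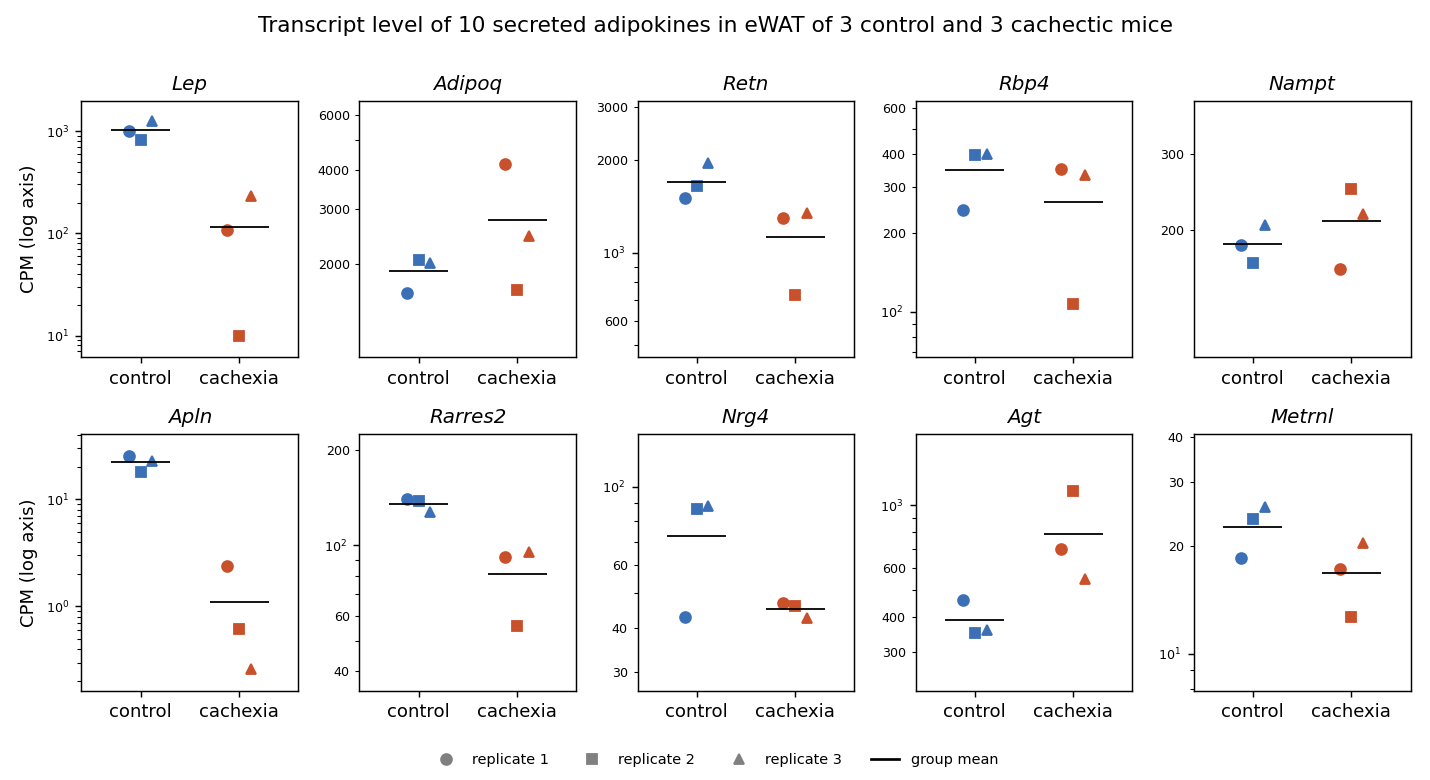
CPM (log axis) of the 10 adipokine genes in 3 control and 3 cachexia mice, with a point per mouse shaped by replicate number and a line at the group mean. Lep and Apln sit far lower in the 3 cachexia mice, Agt sits higher, and the groups overlap for Adipoq, Rbp4, Nampt, Nrg4 and Metrnl.

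The sequence just upstream of 4 of these genes is shown because they span the range of responses: Lep and Apln fell the most, Agt rose, and Adipoq, the most abundant of the 10 per length, did not pass the test. Each is the 250 bases before the RefSeq start (GRCm38.p6), read 5′ to 3′ on the gene's own strand, at chr6:29059971-29060220 (+) for Lep, chrX:48034854-48035103 (-) for Apln, chr8:124569707-124569956 (-) for Agt and chr16:23146286-23146535 (+) for Adipoq. Capitals mark matches on either strand to 6 motifs, which are TATAAA (the TATA box), CCAAT (the box bound by NF-Y), GGGCGG (the box bound by Sp1), TTGCNNAA (the core bound by C/EBP factors), AGGTCA (the element bound by nuclear receptors) and CACGTG (the E-box). The motifs do not overlap each other in these windows.
Lep: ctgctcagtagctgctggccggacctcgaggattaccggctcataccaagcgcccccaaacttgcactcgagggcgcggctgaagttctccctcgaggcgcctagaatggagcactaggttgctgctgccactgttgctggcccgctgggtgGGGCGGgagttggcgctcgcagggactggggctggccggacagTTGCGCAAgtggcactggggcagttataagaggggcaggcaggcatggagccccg
Apln: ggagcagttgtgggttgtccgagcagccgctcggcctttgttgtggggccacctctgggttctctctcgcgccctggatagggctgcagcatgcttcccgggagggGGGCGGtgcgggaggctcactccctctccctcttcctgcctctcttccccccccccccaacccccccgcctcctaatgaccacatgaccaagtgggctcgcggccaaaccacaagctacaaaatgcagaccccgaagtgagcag
Agt: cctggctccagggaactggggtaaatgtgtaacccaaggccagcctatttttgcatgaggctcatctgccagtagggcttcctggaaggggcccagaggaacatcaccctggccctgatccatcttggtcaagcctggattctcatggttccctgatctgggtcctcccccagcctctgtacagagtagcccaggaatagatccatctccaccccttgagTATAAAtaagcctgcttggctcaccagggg
Adipoq: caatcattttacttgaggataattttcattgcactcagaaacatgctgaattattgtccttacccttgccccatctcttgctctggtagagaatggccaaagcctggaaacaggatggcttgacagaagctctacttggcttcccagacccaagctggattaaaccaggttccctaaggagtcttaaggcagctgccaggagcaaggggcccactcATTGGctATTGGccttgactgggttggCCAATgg

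The Lep window held GGGCGG starting at -98 and TTGCNNAA, spelled TTGCGCAA and so the same on both strands, starting at -55 from the start site. Apln held a GGGCGG at -144, and Agt held a TATAAA at -30. Adipoq held CCAAT at -7 on its own strand and at -34 and -27 on the other. Of 32851 windows of this length, 12.4% held TATAAA, 33.9% CCAAT, 32.7% GGGCGG, 9.56% TTGCNNAA, 14% AGGTCA and 6.02% CACGTG. These are letter matches only, and a window lacking a motif says nothing about the factors that bind it. A window was found for 9 of the 10 adipokines, and the Retn window held none of the motifs.

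Lep (ENSMUSG00000059201, chr6:29060220-29073877, GRCm38 coordinates here and for the genes that follow) encodes leptin, the hormone that signals the size of the fat store. It stood at 999, 820 and 1242 CPM in the controls and at 108, 9.83 and 231 CPM in cachexia replicates 1, 2 and 3. Every cachexia value was below every control value, and the 3 cachectic mice differed among themselves by 23.5-fold against 1.51-fold in controls. The level was 8.79-fold lower in cachexia (log2 fold change -3.14, SE 0.89, 95% interval -5.20 to -1.08, edgeR adjusted p = 0.0475). This call lies close to the threshold. It was lost without control replicate 1, 2 or 3 (adjusted p = 0.0772, 0.0918 and 0.121) and without cachexia replicate 1 (adjusted p = 0.126), and stayed without cachexia replicate 2 (adjusted p = 0.0123) or 3 (adjusted p = 0.0398), while the log2 fold change kept between -4.11 and -2.59.

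Apln (ENSMUSG00000037010, chrX:48025146-48034853) encodes apelin, a peptide that widens vessels and promotes vessel growth through the receptor Aplnr. It stood at 25.4, 17.9 and 22.9 CPM in controls and at 2.39, 0.614 and 0.262 CPM in cachexia. The counts behind these were 506, 313 and 404 reads against 41, 10 and 4 reads, and the exact 95% Poisson interval of the 4 reads runs from 1.09 to 10.2 reads, which covers counting error only. Even the highest cachexia value was well under the lowest control value. Apln was 19.8-fold lower (log2 fold change -4.31, SE 0.61, 95% interval -5.73 to -2.89, edgeR adjusted p = 0.00504). It was the member with the most negative log2 fold change, and 0.231% of all tested genes had a lower one. Its call held with any of the 6 mice left out, the adjusted p staying between 0.00258 and 0.0273.

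Rarres2 (ENSMUSG00000009281, chr6:48569696-48572789) encodes chemerin, which is released as an inactive precursor and trimmed by proteases before it binds its receptors. It stood at 141, 138 and 128 CPM in controls and at 91.7, 55.6 and 95.6 CPM in cachexia. The controls lay within 1.10-fold of each other, and each cachexia value was lower. It was 1.68-fold lower (log2 fold change -0.74, SE 0.21, 95% interval -1.22 to -0.26, edgeR adjusted p = 0.0449). The call was lost without control replicate 1, 2 or 3 (adjusted p = 0.0893, 0.117 and 0.110) or cachexia replicate 1 (adjusted p = 0.0695). Rarres2 shares 892 exonic bases with Lrrc61 on the opposite strand, and since the sources used here do not say whether reads were counted by strand, its reads cannot be fully told apart from that gene's, which totalled 980 counts over all 6 libraries.

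Agt (ENSMUSG00000031980, chr8:124556534-124569706) was the member that rose. It encodes angiotensinogen, the precursor that renin and angiotensin-converting enzyme turn into angiotensin II, a peptide that raises blood pressure. It stood at 461, 350 and 361 CPM in controls and at 696, 1122 and 546 CPM in cachexia. The lowest cachexia value, in replicate 3, was above the highest control value, in replicate 1. Agt was 2.02-fold higher (log2 fold change 1.01, SE 0.28, 95% interval 0.36 to 1.66, edgeR adjusted p = 0.0444). The call was lost without control replicate 1, 2 or 3 (adjusted p = 0.0577, 0.139 and 0.154) or without cachexia replicate 1 or 2 (adjusted p = 0.0753 and 0.0796). Without cachexia replicate 2, the mouse with the most Agt, the log2 fold change was 0.67.

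Adipoq (ENSMUSG00000022878, chr16:23146536-23158028), the gene of adiponectin, stood at 1612, 2066 and 2019 CPM in controls and at 4175, 1656 and 2454 CPM in cachexia. Cachexia replicate 1 held more than any control and replicate 2 less than control replicates 2 and 3, so the groups overlapped. Its log2 fold change was 0.54 (SE 0.34, 95% interval -0.25 to 1.33, edgeR adjusted p = 0.305), an interval that spans both a small fall and a rise of more than the one seen for Agt. It was 0.11 without cachexia replicate 1 and 0.81 without cachexia replicate 2 (adjusted p = 0.817 and 0.112). Retn (ENSMUSG00000012705, chr8:3655770-3660110), the gene of resistin, stood at 1508, 1648 and 1961 CPM in controls and at 1300, 730 and 1352 CPM in cachexia. The groups did not overlap, yet the gene did not pass the test (log2 fold change -0.60, SE 0.27, 95% interval -1.23 to 0.03, edgeR adjusted p = 0.165), and its value ran from -0.74 to -0.36 with a mouse left out.

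Nrg4 (ENSMUSG00000032311, chr9:55220222-55326844) encodes a growth factor of the epidermal growth factor family that fat releases to act on the liver. It stood at 42.9, 86.8 and 88.1 CPM in controls and at 46.9, 46.1 and 42.5 CPM in cachexia. Control replicate 1 lay with the cachectic mice rather than with the other controls. Over all 6 mice Nrg4 did not pass (log2 fold change -0.68, SE 0.26, 95% interval -1.28 to -0.08, edgeR adjusted p = 0.107), and without control replicate 1 it did (log2 fold change -0.95, adjusted p = 0.00796). Nrg4 shares 368 exonic bases with Fbxo22 on the opposite strand, a gene with 5969 counts in all, so its level is uncertain in the same way as that of Rarres2.

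The other 3 adipokines overlapped between the groups. Rbp4 (ENSMUSG00000024990, chr19:38116620-38125321), the carrier of retinol in blood, stood at 244, 398 and 402 CPM in controls and at 350, 107 and 333 CPM in cachexia (log2 fold change -0.40, SE 0.42, 95% interval -1.38 to 0.58). Nampt (ENSMUSG00000020572, chr12:32819545-32853349), which makes a precursor of NAD inside cells and is also released as visfatin, stood at 185, 167 and 205 CPM against 162, 249 and 217 CPM (log2 fold change 0.17, SE 0.19, 95% interval -0.25 to 0.60). Metrnl (ENSMUSG00000039208, chr11:121701544-121716306), a secreted relative of meteorin linked to fat browning, stood at 18.5, 23.8 and 25.6 CPM against 17.3, 12.7 and 20.4 CPM (log2 fold change -0.43, SE 0.21, 95% interval -0.92 to 0.06). By edgeR none of the 3 passed, with adjusted p = 0.547 for Rbp4, 0.548 for Nampt and 0.197 for Metrnl. The intervals of Nampt and Metrnl stayed within 1 log2 unit of 0, while that of Rbp4 reached -1.38. With a mouse left out, the log2 fold change ran from -0.66 to -0.02 for Rbp4, from 0.04 to 0.33 for Nampt and from -0.59 to -0.26 for Metrnl.

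**Figure D2:**
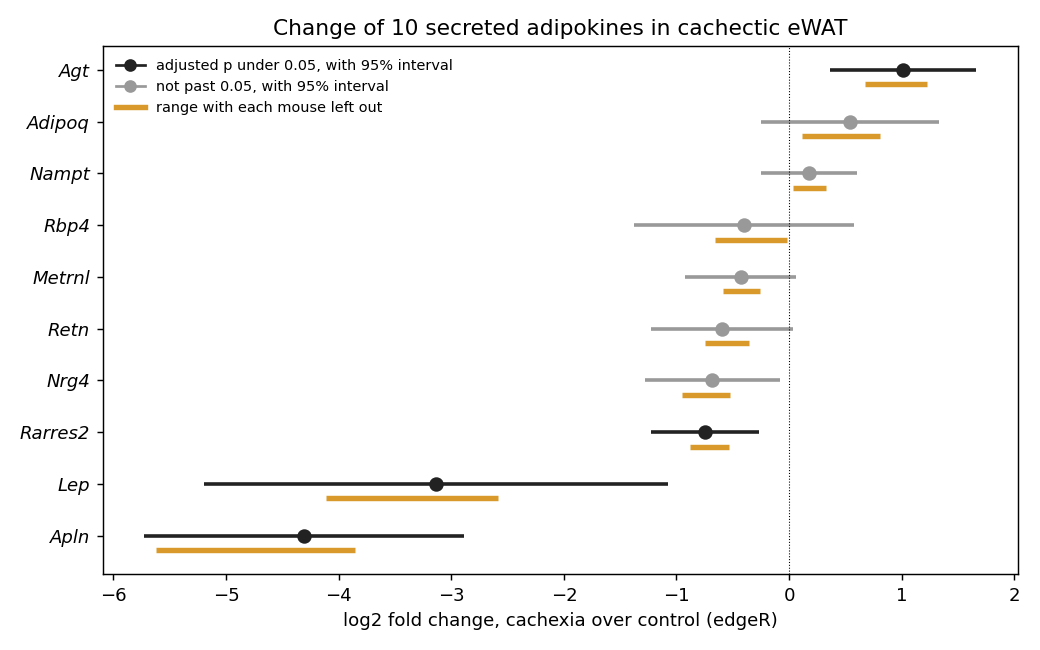
Log2 fold change of each adipokine, cachexia over control, from edgeR over 3 mice a group, with its 95% interval, dark where the adjusted p was under 0.05, and an orange bar for the range when each mouse was left out. Apln lies furthest left at -4.31 and Agt furthest right at 1.01, and the interval of Lep, -5.20 to -1.08, is the widest.

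The mice did not vary in step over all adipokines. Cachexia replicate 2 was the extreme value of its group for 8 of the 10 genes, lowest for Lep, Adipoq, Retn, Rbp4, Rarres2 and Metrnl and highest for Nampt and Agt. Control replicate 1 was also extreme for 8 of the 10, lowest for Adipoq, Retn, Rbp4, Nrg4 and Metrnl and highest for Apln, Rarres2 and Agt. Control replicates 2 and 3 were extreme for 5 and 7 genes, and cachexia replicates 1 and 3 for 5 and 7. In a group of 3 each gene has a lowest and a highest mouse, so high counts arise for any mouse. The share over all tested genes was not computed, so these counts do not mark a mouse as unusual. Cachexia replicate 3, by contrast, had the most Lep of its group and the least Apln, so that the mouse with the least leptin transcript was not the mouse with the least apelin transcript.

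To compare levels between genes, the deposited FPKM values, which divide by gene length, were used. In controls the order of the group means was Adipoq (1357 FPKM), Retn (1067), Lep (300.4), Rbp4 (265), Agt (204), Rarres2 (50.4), Nampt (36.3), Metrnl (14.1), Nrg4 (11.8) and Apln (6.92 FPKM). Neighbours in this order overlapped between Adipoq and Retn, from Lep through Rbp4 to Agt, and from Metrnl through Nrg4 to Apln. In cachexia the order was Adipoq (1956 FPKM), Retn (698), Agt (407), Rbp4 (199), Nampt (40.5), Lep (33.8), Rarres2 (29.8), Metrnl (10.3), Nrg4 (7.27) and Apln (0.339 FPKM). Lep moved from place 3 to place 6 and Agt from place 5 to place 3. In cachexia Lep overlapped both its neighbours Nampt and Rarres2, and Agt overlapped Retn above it but not Rbp4 below it.

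The 10 adipokines together took 0.540% to 0.604% of all counts in controls and 0.413% to 0.690% in cachexia, so their total overlapped while its make-up changed. Adipoq supplied 30.8% to 36.1% of the adipokine counts in controls and 41.5% to 60.1% in cachexia. Lep supplied 14.3% to 19.2% in controls and 0.246% to 4.36% in cachexia, and Retn 28.8% to 30.4% and 18.3% to 25.5%. None of these 3 shares overlapped between the groups. These are shares of the same total, so a fall in Lep or Retn counts lifts the Adipoq share without any rise of Adipoq. Cachexia replicate 2 had less Adipoq (1656 CPM) than control replicates 2 and 3 (2066 and 2019 CPM), yet its Adipoq share was 41.5%.

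**Figure D3:**
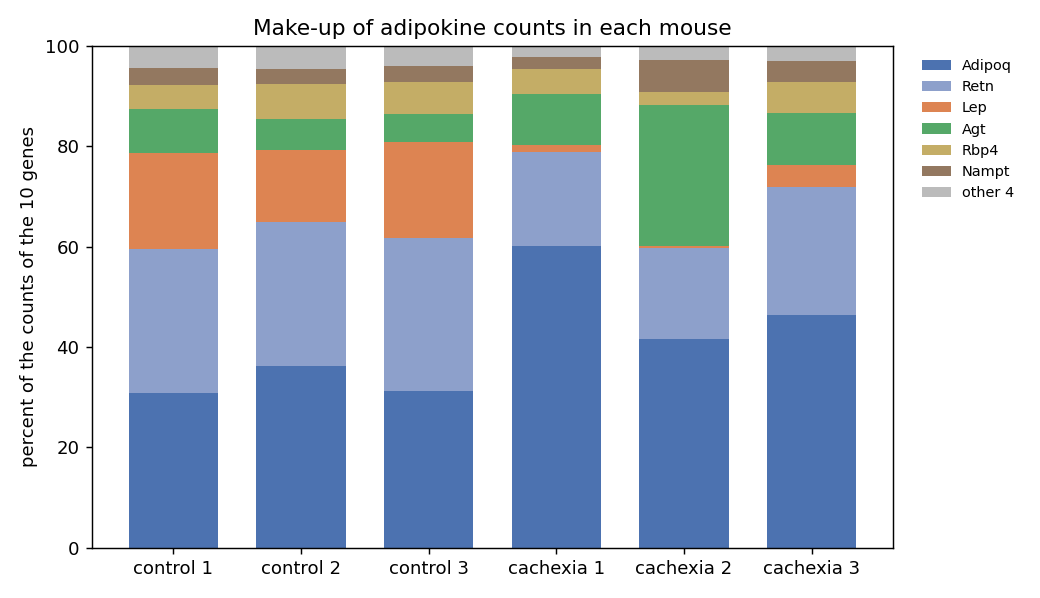
Share, in percent, of the summed counts of the 10 adipokine genes taken by 6 of the genes, with the other 4 pooled in grey, in each of the 6 libraries (stacked bars). The Lep segment, 14.3% to 19.2% in the 3 controls, narrows to at most 4.36% in the 3 cachexia libraries. The Adipoq segment takes 41.5% to 60.1% there, which does not require a rise of Adipoq because all segments share the same total.

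The ratio of leptin to adiponectin transcript is free of library scaling, because both genes are read in the same library. Lep FPKM was 25.5%, 16.3% and 25.3% of Adipoq FPKM in controls 1, 2 and 3. It was 1.06%, 0.244% and 3.87% in cachexia 1, 2 and 3. The groups lay wide apart, and the ratio was 21.9-fold lower in cachexia (difference of the mean log2 ratios -4.45, SD 0.37 in controls and 1.99 in cachexia, n = 3 each, 2-sided exact permutation p = 0.1, the smallest possible). Leaving out cachexia replicate 2, the mouse with the lowest ratio, gave a difference of -3.44, and leaving out cachexia replicate 3, the mouse with the highest, gave -5.43.

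The adipokines were also set beside the mean level of the adipocyte markers. The mean log2(CPM + 0.5) of the 20 adipocyte markers averaged 10.33 over the controls and 9.83 over the cachexia mice, a difference of -0.51 (2-sided exact permutation p = 0.2). The markers did not move as 1 block: 3 rose (Cidec, Pnpla2 and Pck1), 4 fell (Dgat2, Gpd1, Cav1 and Pnpla3), and 13 did not pass. This was 35.0% called, against 17.6% of all tested genes. The median log2 fold change of the 20 markers was -0.04, with 9 above 0 and 11 below. The fall of 0.51 in their mean is thus not the change of a typical marker. Relative to the marker mean, Lep was lower in cachexia by a log2 difference of -3.48 and Apln by -3.55, and Agt was higher by 1.46. Apln stood at 2.39, 0.614 and 0.262 CPM in cachexia, so the added 0.5 shrinks its difference. With a mouse left out, Lep ran from -4.47 (without cachexia replicate 3) to -2.24 (without cachexia replicate 2), Apln from -3.96 to -3.20 and Agt from 1.10 to 1.75. Adipoq, too, no longer overlapped between the groups on this scale, with a difference of 0.95 (0.74 to 1.19 with a mouse left out). These 4 each had a 2-sided exact permutation p = 0.1, the smallest that 3 mice against 3 allow. Rarres2 overlapped on this scale (-0.28), as did Nrg4 (-0.10), Retn (-0.14), Rbp4 (-0.04), Metrnl (0.07) and Nampt (0.66). The number of adipokines whose groups did not overlap on this scale was 4. With a mouse left out, where smaller groups separate more easily, it ran from 4 to 6, with 6 without control replicate 1 or cachexia replicate 3. The share of all tested genes that separate on this scale was not computed, so the count has no background beside it. The fall of 0.51 in the marker mean adds that amount to the difference of every gene here, that of Adipoq included.

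**Figure D4:**
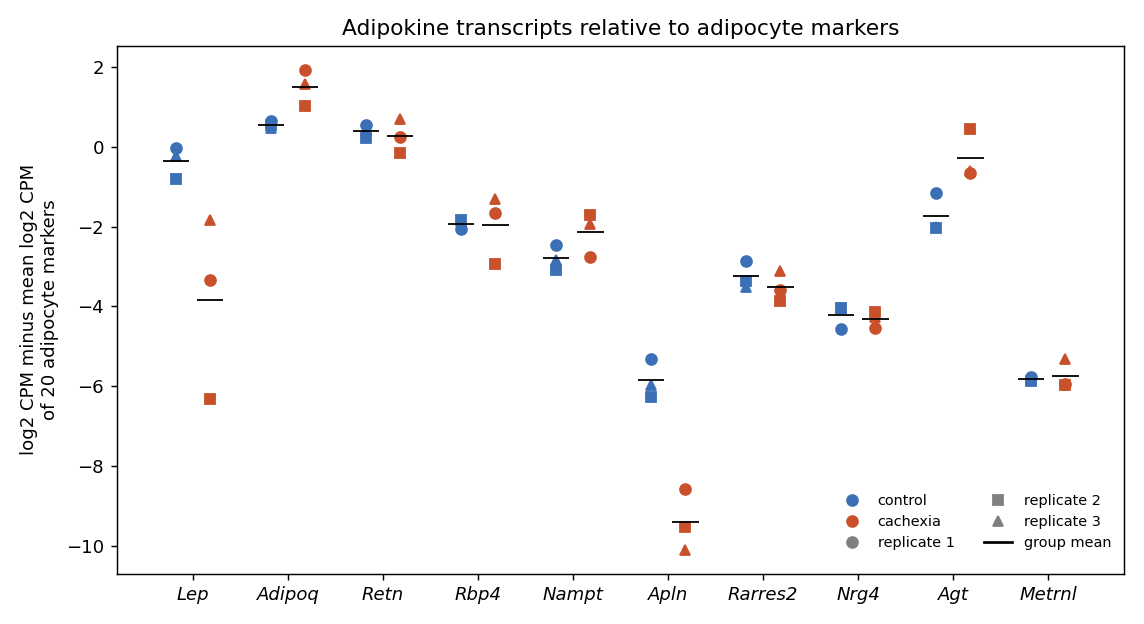
Log2(CPM + 0.5) of each adipokine minus the mean log2(CPM + 0.5) of 20 adipocyte markers in the same library, with a point per mouse (3 control, 3 cachexia) and a line at the group mean. Lep, Apln, Agt and Adipoq separate the groups, with differences of -3.48, -3.55, 1.46 and 0.95, and the other 6 overlap. The added 0.5 shrinks the Apln difference, because the cachexia levels of Apln are near that size.

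The receptors of these adipokines were read in the same tissue. Of 15 receptor genes that were present, 12 were tested, 6 rose, 1 fell and 5 did not pass. This was a share of 58.3% called, against 17.6% of all tested genes. The median log2 fold change of the 12 was 0.55, against -0.00 over all tested genes. With a mouse left out in turn, the number that rose ran from 1 (without control replicate 3) to 5, and was 3 without control replicate 2. The endothelial, neutrophil and erythroid marker sums given above also rose, and the lymphocyte and progenitor sums fell. The part of these shifts in the receptor values was not tested.

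Lepr, the leptin receptor, stood at 10.9, 11.7 and 8.95 CPM in controls and at 20.2, 35.5 and 21.6 CPM in cachexia, with each cachectic mouse above each control. It rose (log2 fold change 1.29, SE 0.25, edgeR adjusted p = 0.0129), opposite in direction to its ligand, and lost its call without control replicate 3 (adjusted p = 0.0651). Adipor2, an adiponectin receptor best known in liver, stood at 573, 698 and 628 CPM in controls and at 1498, 1237 and 1306 CPM in cachexia. It rose with little spread within either group (log2 fold change 1.09, SE 0.18, edgeR adjusted p = 0.00845, and 0.0569 without control replicate 3). Adipor1, the adiponectin receptor prominent in muscle, rose less (log2 fold change 0.49, SE 0.13, edgeR adjusted p = 0.0409), a call that held with 1 of the 6 mice left out and not with the other 5 (adjusted p up to 0.130). Cdh13, the T-cadherin that binds the large forms of adiponectin on vessel walls, rose from 74.7, 60.9 and 61.1 CPM to 149, 107 and 194 CPM (log2 fold change 1.19, SE 0.22, edgeR adjusted p = 0.0122). It lost its call without control replicate 2 or 3 (adjusted p up to 0.0631).

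Agtr1a, the main receptor of angiotensin II, stood at 19.2, 22.9 and 22.7 CPM in controls and at 35.6, 48.6 and 38.2 CPM in cachexia. It rose (log2 fold change 0.92, SE 0.16, edgeR adjusted p = 0.00997) and was the receptor that kept its call with any mouse left out (adjusted p up to 0.0495). Gpr1, a chemerin receptor, stood at 1.71, 2.12 and 2.38 CPM against 3.97, 6.39 and 12.2 CPM. It rose from this low level (log2 fold change 1.86, SE 0.44, edgeR adjusted p = 0.0263) and kept its call with 2 of the 6 mice left out (adjusted p up to 0.0834). Stra6, which takes retinol from its carrier Rbp4 into cells, fell from about 1 CPM, being 0.953, 1.26 and 0.963 CPM in controls and 0.350, 0.123 and 0.262 CPM in cachexia (log2 fold change -2.07, SE 0.50, edgeR adjusted p = 0.0275). Its call was lost with any mouse left out (adjusted p from 0.0509 to 0.0979), and levels this low make the size of the fall imprecise.

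Aplnr, the apelin receptor, varied widely among the cachectic mice. It stood at 109, 90.2 and 96.9 CPM in controls and at 45.2, 155 and 20.3 CPM in cachexia. Cachexia replicate 2 lay above all controls and the other 2 cachectic mice below them. The log2 fold change was -0.42 (SE 0.61, edgeR adjusted p = 0.665) over all mice and -1.59 (adjusted p = 0.0288) without that replicate. It was -0.17 (adjusted p = 0.897) without cachexia replicate 1 and 0.02 (adjusted p = 0.978) without cachexia replicate 3. Of the remaining receptors, Cmklr1, the signalling chemerin receptor, had a log2 fold change of 0.09, Ccrl2, which presents chemerin to other cells, of 0.61, and Cap1, a resistin receptor, of 0.02, and none passed. The value of Cmklr1 changed sign without control replicate 1 (-0.17) or cachexia replicate 3 (-0.14). Erbb3, a receptor that binds neuregulins, stood at 16.7, 2.98 and 1.98 CPM in controls and at 2.27, 4.11 and 2.36 CPM in cachexia. Control replicate 1 lay above the other 5 mice, and the log2 fold change was -1.31 (adjusted p = 0.268) with that mouse and 0.23 (adjusted p = 0.739) without it. Erbb4, Agtr1b and Agtr2 were under the count filter.

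**Figure D5:**
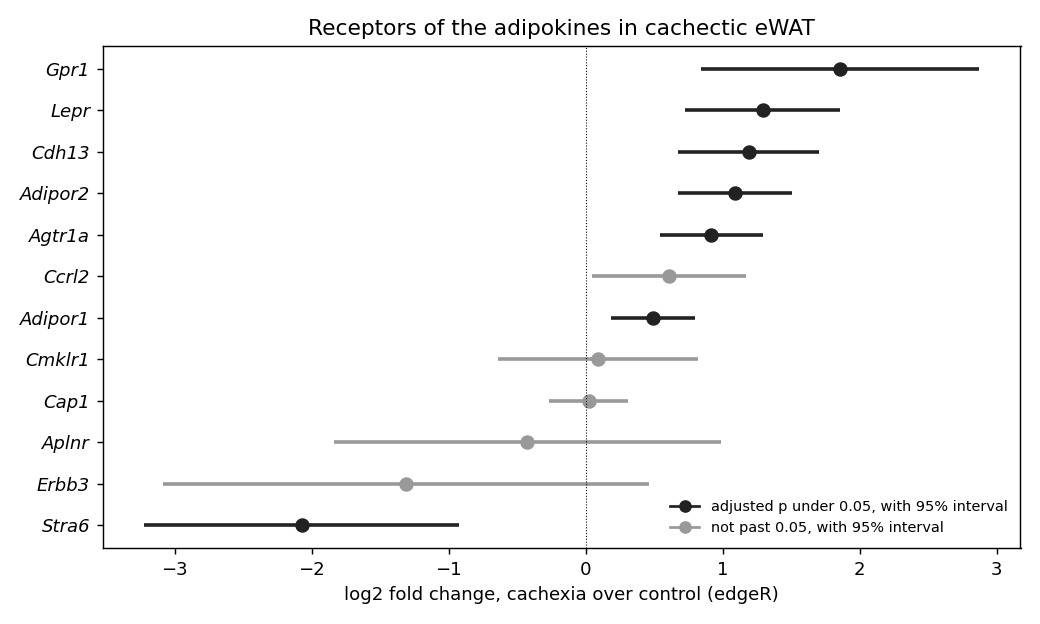
Log2 fold change of 12 adipokine receptor genes, cachexia over control, from edgeR over 3 mice a group, with 95% intervals, dark where the adjusted p was under 0.05. Lepr, Adipor1, Adipor2, Cdh13, Gpr1 and Agtr1a lie to the right of 0, Stra6 lies to the left at -2.07, and the interval of Aplnr runs from -1.84 to 0.99.

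Of the proteins that process or assist the adipokines, 16 were tested, 1 rose and 2 fell. The share called was 18.8%, near the 17.6% of all tested genes, and the median log2 fold change was 0.03. Enpep, an aminopeptidase that trims angiotensin II, stood at 112, 377 and 248 CPM in controls and at 98, 109 and 74.8 CPM in cachexia (log2 fold change -1.38, SE 0.39, edgeR adjusted p = 0.0478). Nnmt, which methylates the nicotinamide that Nampt would recycle, fell from 221, 206 and 205 CPM to 79.1, 30.5 and 103 CPM (log2 fold change -1.57, SE 0.38, edgeR adjusted p = 0.0289). Nmnat3, an enzyme of the step after Nampt in NAD synthesis, rose (log2 fold change 0.98, SE 0.23, edgeR adjusted p = 0.0256). Each of these 3 lost its call in at least 3 of the 6 fits with a mouse left out (adjusted p up to 0.133 for Enpep, 0.0837 for Nnmt and 0.0997 for Nmnat3). Ace, the converting enzyme, had a log2 fold change of -0.63 (adjusted p = 0.223), and Ren1, the renin gene, was under the filter.

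Of 16 transcription regulators of adipocyte genes, 2 rose and 1 fell. The share called, 18.8%, was near the 17.6% of all tested genes, and the median log2 fold change was -0.14. Cebpd, a C/EBP factor induced by glucocorticoids, stood at 52.0, 55.7 and 47.3 CPM in controls and at 137, 175 and 366 CPM in cachexia. It rose (log2 fold change 2.13, SE 0.35, edgeR adjusted p = 0.00807) and kept its call with any mouse left out (adjusted p up to 0.0455). Srebf1, the driver of fatty acid synthesis genes, fell from 514, 579 and 602 CPM to 143, 264 and 83.8 CPM (log2 fold change -1.79, SE 0.38, edgeR adjusted p = 0.0188), and lost its call without control replicate 2 or 3 or cachexia replicate 1 (adjusted p up to 0.0675). Epas1, a hypoxia-inducible factor, rose (log2 fold change 0.71, SE 0.20, edgeR adjusted p = 0.0483), a call lost with any mouse left out (adjusted p up to 0.137). Pparg, the main regulator of fat cell identity, had a log2 fold change of -0.28 (adjusted p = 0.425). Cebpa, which acts with it, stood at 872, 1040 and 864 CPM in controls and at 823, 439 and 177 CPM in cachexia (log2 fold change -0.95, adjusted p = 0.198). The 3 cachectic mice spread over a wide range for Cebpa.

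Among 13 tested relatives of the adipokines (resistin-like, retinol-binding, neuregulin and C1q/TNF-related genes) 3 rose and 2 fell. This was 38.5% called, against 17.6% of all tested genes, with a median log2 fold change of -0.36. Retnlg, a resistin-like gene of neutrophils and bone marrow that also counts among the neutrophil markers above, stood at 0.301, 1.43 and 0.510 CPM in controls and at 19.3, 21.9 and 27.7 CPM in cachexia (log2 fold change 4.95, SE 0.48, edgeR adjusted p = 0.00162). Retnla, its relative made by alternatively activated macrophages and fat, stood at 342, 545 and 479 CPM against 229, 9.33 and 93.3 CPM and did not pass (log2 fold change -2.04, SE 0.86, adjusted p = 0.139). Resistin and its 2 tested relatives thus gave unlike values. Rbp7, a retinol-binding protein of vessels and fat, stood at 11.5, 12.2 and 10.9 CPM in controls and at 103, 14.2 and 260 CPM in cachexia (log2 fold change 3.44, SE 0.85, edgeR adjusted p = 0.0308), with replicate 2 close to the controls. The call was lost in 5 of 6 fits with a mouse left out (adjusted p up to 0.109). C1qtnf12 rose (0.55), and C1qtnf6 (-1.41) and C1qtnf7 (-0.76) fell on the log2 scale. These 3 are paralogues of adiponectin, and each lost its call in at least 2 such fits.

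Of 20 other factors secreted by fat, 1 rose and 5 fell (30% called, against 17.6% of all tested genes, median log2 fold change -0.14). Fndc5, the precursor of irisin, stood at 23.5, 6.76 and 17.0 CPM in controls and at 0.233, 0.368 and 0.197 CPM in cachexia (log2 fold change -5.85, SE 0.58, edgeR adjusted p = 0.00164). Levels this low in cachexia rest on few reads and make the size of its fall imprecise. Angptl8, an inhibitor of lipoprotein lipase that is made after feeding, fell from 39.9, 29.3 and 41.4 CPM to 3.91, 5.90 and 1.57 CPM (log2 fold change -3.27, SE 0.41, edgeR adjusted p = 0.00351). Angptl4, the lipase inhibitor made in fasting, rose from 268, 510 and 409 CPM to 791, 722 and 1267 CPM (log2 fold change 1.23, SE 0.31, edgeR adjusted p = 0.0315). Angptl8 and Angptl4 thus moved in opposite directions, and any link to feeding in these mice was not tested. Igf1, an insulin-like growth factor, fell (-1.19), as did Fbn1, which encodes fibrillin and its fragment asprosin (-1.66), and Ccl2, a chemokine for monocytes (-1.79, all on the log2 scale). Fndc5, Angptl8, Fbn1 and Ccl2 kept their calls with any mouse left out. Igf1 lost its call without control replicate 3 (adjusted p = 0.0624), and Angptl4 in 5 of 6 fits (adjusted p up to 0.108). Cfd, the gene of adipsin, did not pass (9045 to 10801 CPM in controls and 9077 to 17594 CPM in cachexia, log2 fold change 0.37).

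The protein-coding genes outside the 10 whose centred profile over the 6 libraries lay closest to a given adipokine, by Euclidean distance on the log2(CPM + 0.5) scale, were taken as most like it. For Lep they were Orm1 (distance 1.5, log2 fold change -2.55), Retnla (2.26, -2.04) and Fam83a (2.27, -3.54). For Adipoq they were Klf4 (0.403, 0.35), Zbtb4 (0.406, 0.57) and Itih5 (0.412, 0.33). For Retn they were Tdrp (0.209, -0.46), Ryr1 (0.222, -0.94) and Ggh (0.227, -0.56). The distance grows with the size of a gene's own changes, which were larger for Lep than for Adipoq and Retn. All points come from the same 6 libraries, and no test was made.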

How the data were processed

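RNA-seq of whole eWAT was analysed in 3 control and 3 cachexia mice, grouped by the disease state per the labels. The study used Hisat2 for alignment and featureCounts 1.5.0-p3 for counting, the latter named with DESeq2 1.16.1 in the submitters' processing notes. The authors deposited raw read counts per gene (unnormalized) and FPKM, which scales counts to library and gene length. The notes name mm9, but 98.3% of the gene coordinates match GENCODE M21 on GRCm38, including 9 of the 10 adipokines, so positions are given as GRCm38. Strand use in counting is not given in the sources used here. The authors' table of fold changes and p-values was not used, including its 6 columns of per-sample values. Total counts per library were 14928766 to 18855546.

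Counts of all genes were filtered (filterByExpr), scaled by TMM and tested with edgeR 4.0.16 (quasi-likelihood, R 4.3.3), with Benjamini-Hochberg adjustment over 16003 genes and a threshold of 0.05. CPM used TMM-scaled library sizes, with a pseudocount of 0.5 on the log2 scale. The biological coefficient of variation was 0.264. Single values were compared by 2-sided exact permutation tests. Levels between genes were compared on FPKM. The edgeR script was tested on simulated data. No pair of libraries was close to identical. The 10 adipokines and all gene lists were chosen with earlier results of these data known. Named were the 10 adipokines, list genes past the threshold, their receptors and partners, and the 3 genes most like Lep, Adipoq and Retn. Cfd, Retnla, Pparg and Cebpa, which did not pass, were named after their values were seen. Alternatives were DESeq2 1.42.0, RLE scaling, library totals, limma 3.58.1 (voom, and FPKM with pseudocounts of 1 and 0.1), other filters, protein-coding genes alone, a block on replicate number, and fits without each mouse in turn. Scaling to the adipocyte markers, and leaving out mice or blocking for the gene lists, were added after seeing the data.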

Additional observations from a re-analysis of the deposited data

How the results depend on the processing

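The log2 fold changes of all 10 adipokines kept their direction in every planned setting that gave a value. Relative to the adipocyte markers, small differences changed sign: Rbp4 to 0.002 without control replicate 2 and 0.44 without cachexia replicate 2, Retn to 0.075 without cachexia replicate 2, Nrg4 to 0.0090 without cachexia replicate 1 and Metrnl to -0.14 without cachexia replicate 3. Apln passed in 15 of 15 (with at least 10 counts in every library it was not tested), Lep in 10 of 16, Rarres2 in 9, Agt in 8, Nrg4 in 1, and the others in 0. The number that rose, 1, was 0 to 1 with a mouse left out, 0 under limma on log2(FPKM + 1) or log2(FPKM + 0.1), and 0 with the replicate block. The number that fell, 3, was 1 to 3 with a mouse left out, being 1 without control replicate 2 or 3 or cachexia replicate 1, and 1 with protein-coding genes alone. Calls over all genes, 2821, were 828 to 2339 with a mouse left out, with 1312 without control replicate 2 and 828 without control replicate 3, where fewer samples were fitted. DESeq2 called 3884. Scaling to the adipocyte markers moved the median of all genes to 0.49, made 85.4% of calls higher (51.0% by TMM), raised the number of adipokines that rose to 2 (Adipoq at 1.00 with Agt), lost Rarres2 (-0.27), and turned Rbp4 to 0.10 and Metrnl to 0.093. For the gene lists, DESeq2 gave 2 processing partners, 5 regulators and 5 other secreted factors higher. In the same lists it gave 2 processing partners, 1 regulator and 7 other secreted factors lower. With a mouse left out, 1 to 5 receptors rose and 0 to 1 fell, 0 to 1 processing partners rose and 0 to 1 fell, 1 to 2 regulators rose and 0 to 1 fell, 1 to 3 relatives rose and 0 to 2 fell, and 0 to 4 other secreted factors rose and 4 to 5 fell. With the block, 5 receptors rose and 0 fell, 1 processing partner fell, 1 regulator rose, and 1 relative rose and 3 fell, with the other counts as before. No link between same-numbered mice was seen over all tested genes, where their deviations correlated between -0.011 and 0.0085. With 3 mice a group this cannot exclude shared cages, litters or batches. The block on replicate number gave 1881 calls over all genes, 2 adipokines lower and 0 higher. The cause of these moves was not tested. Groups of 3 limit the precision, and for Apln so do 4 to 41 reads in cachexia. The low levels of Fndc5 and Stra6 in cachexia limit theirs in the same way.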
